A study of Oryza sativa with 20 samples.

Results

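ASMT and MT1B are 2 of the 17905 rice genes that the annotation assigns to at least 1 probe set on the array used here. ASMT (LOC4346795, also named ASMT1) encodes acetylserotonin O-methyltransferase, and MT1B (LOC4332487) encodes a type 1 metallothionein. They were chosen from earlier results of these same arrays, because both lay far above the unpollinated level 5 min after pollination, with ASMT back down by 5 to 7 h and MT1B still high. Those changes and that time course are therefore given as a description, without a test. Each gene was read by 1 probe set.

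Plants make melatonin from tryptophan. Tryptophan decarboxylase forms tryptamine, the cytochrome P450 tryptamine 5-hydroxylase turns it into serotonin, serotonin N-acetyltransferase adds an acetyl group, and acetylserotonin O-methyltransferase methylates the product. Melatonin is known in plants as an antioxidant and as a compound that accumulates under stress. Metallothioneins are small cysteine-rich proteins that bind copper and zinc and scavenge reactive oxygen species. Plant metallothioneins fall into 4 types that differ in the spacing of their cysteines, and members of a type can differ widely in where and when they are expressed.

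Total RNA from 20 samples of field-grown rice (Oryza sativa) was hybridised to Affymetrix arrays. Unpollinated stigma and unpollinated ovary (3 arrays each) were the controls, and stigma (2 arrays) and ovary (3 arrays) were taken 5 min after pollination. Whole pistils (3 arrays per time) were taken at 15 to 25 min, at 40 to 50 min and at 5 to 7 h, times that the submitters name for pollen tube growth, fertilization and zygote formation. The post-pollination samples that include the stigma also include the pollen grains that had landed on it. No unpollinated whole pistil is among the samples, so pistils were set against both unpollinated tissues. No genotype or treatment other than pollination is given in the labels. The replicates are called biological without further detail, so p-values measure the spread between these samples.

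Values are linear relative intensities scaled so that every array has its 75th percentile at 1. The array medians ran from 0.195 to 0.377. Replicates correlated at 0.937 or more within each group. The ovule marker MADS13 separated the dissected tissues, with 1.13 to 2.11 in unpollinated stigma and 16.2 to 18.9 in unpollinated ovary. The 5-min stigma arrays differed from each other in it, with 0.972 on replicate 1 and 3.66 on replicate 2. The carpel gene DL was measured on every array, between 3.82 and 21.6.

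ASMT was near the bottom of the intensity scale before pollination and far higher on every array taken in the first hour after it. Its intensity was 0.161, 0.148 and 0.203 in unpollinated stigma and 0.0958, 0.169 and 0.0976 in unpollinated ovary. At 5 min after pollination it was 5.48 and 24.9 in stigma and 9.40, 3.09 and 20.1 in ovary. The 5-min arrays did not overlap the unpollinated arrays in either tissue. The differences between log2 group means were 6.11 (SE 0.88), or 69.1-fold, in stigma and 5.90 (SE 0.79), or at least 59.5-fold, in ovary, where 2 of the 3 unpollinated arrays lay at the floor of 0.128 set on the values. Leaving out 1 array at a time gave 5.02 to 7.20 in stigma, the extremes being those without either 5-min array, and 5.26 to 6.61 in ovary, those without 5-min replicate 3 or 2. In bulk samples, more RNA per cell and more cells that hold the transcript cannot be told apart.

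In whole pistils ASMT was 14.8, 14.2 and 15.4 at 15 to 25 min and 11.9, 0.903 and 14.3 at 40 to 50 min. At 5 to 7 h it was 0.155, 0.123 and 0.0702. The earliest pistils were at 14.8 ± 0.602 (SD, n = 3), and the last group lay within or below the range of the unpollinated tissues. Against unpollinated stigma, the log2 differences were 6.46 (87.7-fold), 4.99 (31.7-fold) and -0.31 at the 3 times in order. Against unpollinated ovary, they were 6.72 (at least 106-fold), 5.25 (at least 38.1-fold) and -0.04. At 5 to 7 h 2 of the 3 pistil arrays lay at the floor, so the values of -0.31 and -0.04 are limited by it. The 40 to 50 min value rested partly on replicate 2, and without that array the log2 difference from the higher unpollinated tissue was 6.27.

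MT1B also started low and was high on every array taken after pollination, including the latest. Its intensity was 0.141, 0.182 and 0.632 in unpollinated stigma and 0.539, 0.196 and 0.192 in unpollinated ovary. At 5 min after pollination it was 19.9 and 22.6 in stigma and 6.86, 2.82 and 8.94 in ovary. No pollinated array overlapped an unpollinated array, and the 5-min stigma arrays lay above all 3 ovary arrays. The log2 differences were 6.39 (SE 0.56), or 83.6-fold, in stigma and 4.35 (SE 0.50), or 20.4-fold, in ovary.

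In whole pistils MT1B was 10.8, 13.4 and 11.3 at 15 to 25 min and 8.68, 6.75 and 15.2 at 40 to 50 min. At 5 to 7 h it was 14.7, 18.4 and 16.9, above every array of the earliest pistils. The log2 differences from unpollinated stigma were 5.54 (46.4-fold), 5.25 (37.9-fold) and 6.03 (65.5-fold) at the 3 times in order. Those from unpollinated ovary were 5.43 (43.1-fold), 5.14 (35.2-fold) and 5.93 (60.8-fold). The genes thus parted at the last time point, with ASMT at its unpollinated level and MT1B at 16.7 ± 1.85 (SD, n = 3).

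**Figure D1:**
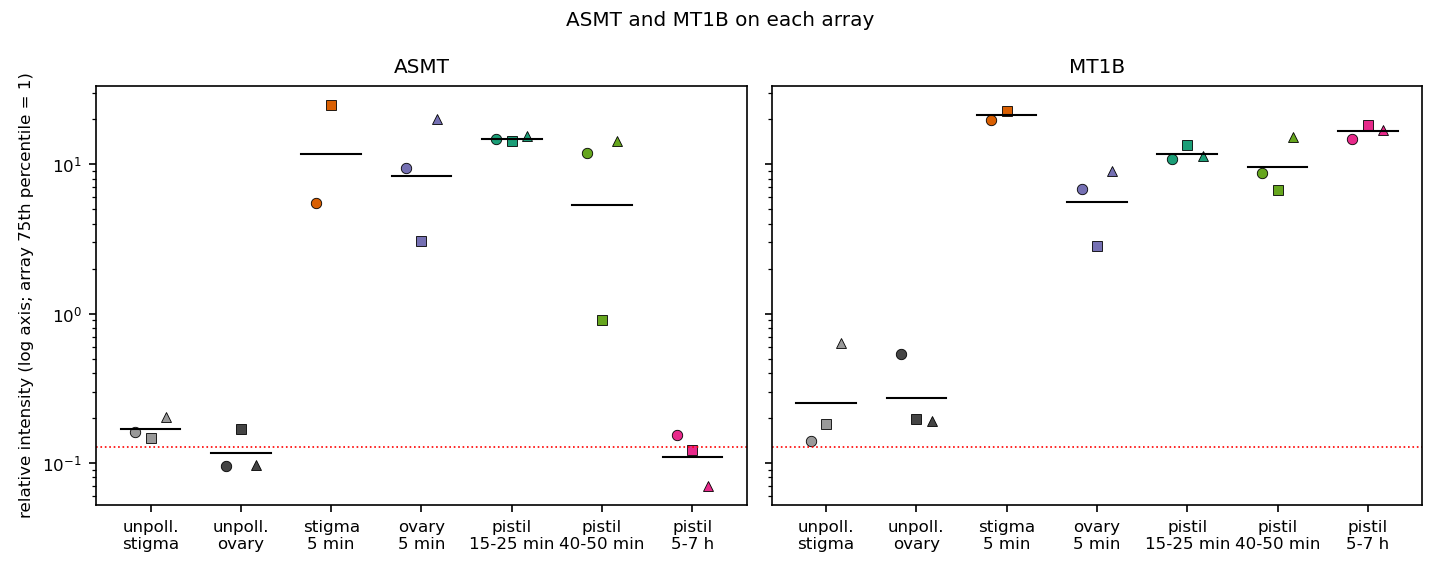
Relative intensity (log axis, array 75th percentile 1) of ASMT and MT1B on each of the 20 arrays by group. Circles, squares and triangles are replicates 1, 2 and 3, black lines are geometric means of the values as deposited, and the red dotted line is the floor of 0.128. ASMT is between 0.0702 and 0.155 at 5 to 7 h, and MT1B between 14.7 and 18.4.

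By median, the groups ranked for ASMT as 5-min stigma, 15 to 25 min pistil, 40 to 50 min pistil and 5-min ovary, and these 4 groups overlapped one another. Below them lay unpollinated stigma, 5 to 7 h pistil and unpollinated ovary, which also overlapped. Nothing fell between the 2 sets: the lowest array of the upper set was 0.903 and the highest array of the lower set was 0.203. For MT1B the order was 5-min stigma, 5 to 7 h pistil, 15 to 25 min pistil, 40 to 50 min pistil and 5-min ovary, with the unpollinated tissues far below. The 5-min stigma did not overlap the 5 to 7 h pistils, nor these the 15 to 25 min pistils. The 40 to 50 min pistils overlapped each of their neighbours.

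The choice of the genes did not use the difference between unpollinated stigma and ovary, so this difference was tested with limma across all 35470 probe sets, with Benjamini-Hochberg adjustment. Before pollination neither gene passed the threshold of an adjusted p under 0.05. The log2 difference of stigma minus ovary was 0.27 (SE 0.79, limma adjusted p = 0.809) for ASMT and -0.11 (SE 0.50, limma adjusted p = 0.885) for MT1B. In this comparison 32.8% of all tested probe sets passed.

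At 5 min after pollination the differences between stigma and ovary use the arrays on which the genes were chosen, so they are given as a description, without a test. For MT1B the log2 difference of stigma minus ovary was 1.93 (SE 0.56), or 3.81-fold, and the tissues did not overlap. For ASMT it was 0.48 (SE 0.88), and the tissues overlapped. Of all tested probe sets, 35.0% were called in this comparison. The 5-min change of MT1B was larger in stigma than in ovary by 2.03 on the log2 scale (SE 0.75), and that of ASMT by 0.22 (SE 1.18). Over all tested probe sets 1.37% were called for such a difference between the changes. Leaving out 1 array at a time moved the MT1B difference between changes from 1.54 to 2.69, the latter without unpollinated stigma replicate 3, its highest unpollinated array.

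Of the 8 other metallothionein genes in the naming table, MT21A and MT4B have no probe set here and 6 were tested. MT1A, the other gene with a type 1 name, and MT4A rose in both tissues at 5 min, and no metallothionein was called lower. The numbers in these names were not checked against the cysteine spacing that defines the types. These are 2 of 6 in stigma and 2 of 6 in ovary, beside 8.61% and 3.88% of all tested probe sets that were higher in the same comparisons. The median log2 change of the 6 genes was 0.63 in stigma and -0.05 in ovary, against -0.02 and -0.06 over all tested probe sets. MT2A, MT2B, MT2C and MT4C were not called in either tissue, with log2 changes in stigma of -0.35, -1.54, -0.69 and 2.48 in order.

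MT1A was 0.213, 0.268 and 0.775 in unpollinated stigma and 0.684, 0.172 and 0.159 in unpollinated ovary. At 5 min it was 9.50 and 32.2 in stigma and 11.1, 5.31 and 19.0 in ovary. It rose by 5.63 on the log2 scale in stigma (SE 0.73, 49.4-fold, limma adjusted p = 5.77e-05) and by 5.29 in ovary (SE 0.65, 39.1-fold, limma adjusted p = 1.49e-04). Both calls held in all 30 alternative settings and left-out arrays. In whole pistils MT1A was 17.9, 13.3 and 14.6 at 15 to 25 min, 12.0, 3.16 and 15.0 at 40 to 50 min, and 3.48, 3.37 and 3.11 at 5 to 7 h. It was called higher than both unpollinated tissues at each of the 3 times. At 5 to 7 h it was 9.38-fold above unpollinated stigma and 12.5-fold above unpollinated ovary, below its range at 15 to 25 min but above every unpollinated array. Its course thus had neither the full return of ASMT nor the late level of MT1B, and stigma and ovary did not pass a test of their difference before pollination (0.42, SE 0.65, limma adjusted p = 0.636) or at 5 min (0.75, SE 0.73, limma adjusted p = 0.422).

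MT4A changed much less. It was 0.172, 0.186 and 0.608 in unpollinated stigma and 0.738 and 0.905 in the 5-min stigma, a rise of 1.60 on the log2 scale (SE 0.52, limma adjusted p = 0.0335). In ovary it was 0.114, 0.291 and 0.139 before and 0.866, 0.709 and 0.457 at 5 min, a rise of 1.92 (SE 0.46, limma adjusted p = 0.0201). It was higher than both unpollinated tissues at 15 to 25 min and lay between 0.135 and 0.198 at 5 to 7 h. Its 5-min call is a weak result: it was lost when either 5-min stigma array or unpollinated stigma replicate 1 or 2 was left out, and in ovary when unpollinated replicate 1 or 3 or 5-min replicate 1 or 2 was left out.

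At the 3 pistil times, 2, 1 and 1 of the 6 other metallothioneins were higher than both unpollinated tissues and 0 were lower. Over all tested probe sets the shares called higher were 4.02%, 2.52% and 8.61%, and the shares called lower 1.98%, 1.45% and 7.41%. Among the genes with a type 2 name, MT2B and MT2C differed between the tissues. MT2B was lower in stigma than in ovary before pollination, by -3.81 on the log2 scale (SE 0.61, limma adjusted p = 1.04e-04), and at 5 min, by -4.84 (SE 0.68, limma adjusted p = 4.57e-05). Its unpollinated stigma arrays were 0.407, 0.673 and 5.91, and without replicate 3 the first difference was -4.97. MT2C was lower in the 5-min stigma by -1.13 (SE 0.37, limma adjusted p = 0.0246), a call lost without either 5-min stigma array and without 5-min ovary replicate 1 or 3.

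**Figure D2:**
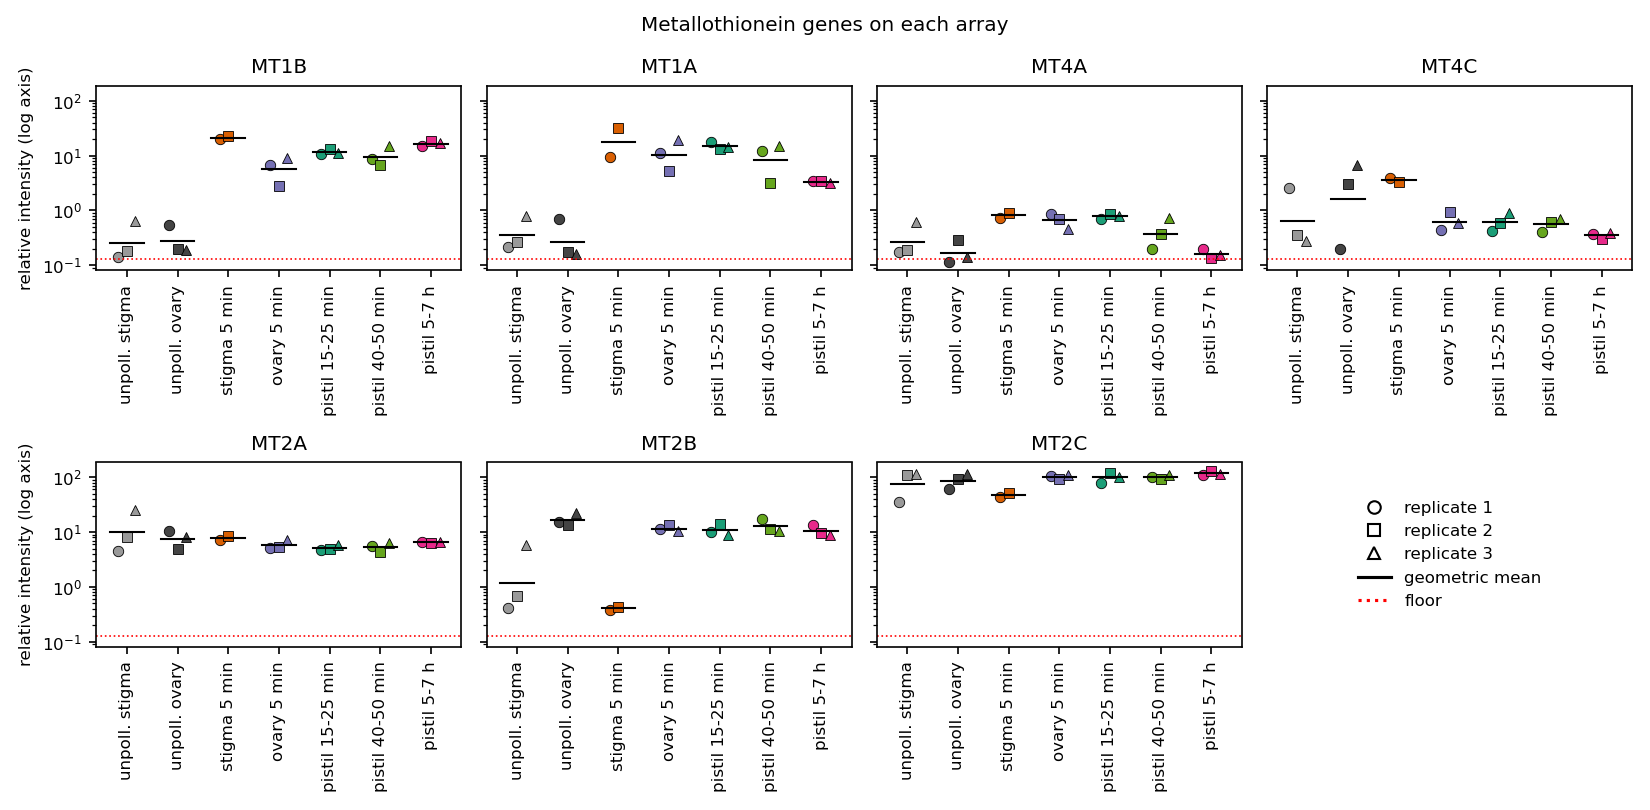
Relative intensity (log axis) of 7 metallothionein genes on each array, 1 panel per gene, with the tested probe set of highest mean for each. Circles, squares and triangles are replicates 1 to 3, black lines geometric means and the red dotted line the floor. MT1A and MT1B stand above their unpollinated arrays at every later time, and MT2B is below every ovary array on all stigma arrays, with unpollinated stigma replicate 3 the highest of these.

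Among the other genes of tryptophan supply and melatonin synthesis, 9 were tested. In the 5-min stigma 1 of 9 was higher and 3 were lower, beside 8.61% higher and 13.4% lower over all tested probe sets. In the 5-min ovary 1 was higher and 1 was lower, beside 3.88% and 2.02%. The median log2 change of the 9 genes was -0.30 in stigma and -0.06 in ovary. At each pistil time 0 of 9 differed from both unpollinated tissues in the same direction. Over all tested probe sets, 4.02%, 2.52% and 8.61% were higher at the 3 times in order, and 1.98%, 1.45% and 7.41% lower. The counts of 0 thus lie near the background.

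The anthranilate synthase subunits, which feed tryptophan synthesis, were called in different directions. The alpha subunit OASA2 fell by 0.78 on the log2 scale in stigma (SE 0.19, limma adjusted p = 0.00653), although its other tested probe set was not called. The alpha subunit OASA1 fell by 0.53 in ovary (SE 0.15, limma adjusted p = 0.0451) and the beta subunit OASB2 rose by 0.74 there (SE 0.20, limma adjusted p = 0.0389). The beta subunit OASB1 was not called, with log2 changes of 0.21 in stigma and 0.08 in ovary.

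Of the enzymes between tryptophan and melatonin, the decarboxylase TDC2 fell by 0.63 in stigma (SE 0.20, limma adjusted p = 0.0288). The acetyltransferase SNAT1, which makes the substrate of ASMT, fell by 1.02 there (SE 0.20, limma adjusted p = 0.00150). SNAT2 was not called in either tissue. ASMT3, a methyltransferase named as a relative of ASMT, rose by 1.25 in stigma (SE 0.40, limma adjusted p = 0.0309) and was not called in ovary, where the change was -0.71. Without 5-min stigma replicate 2, 0 of the 9 pathway genes were called in stigma. The stigma calls of ASMT3 and TDC2 were lost on leaving out 5 and 4 of the 20 arrays in turn, among them every 5-min stigma array and unpollinated stigma replicates 1 and 2. The ovary calls of OASA1 and OASB2 were lost in 15 and 14 of 30 alternatives.

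Several pathway genes differed between the tissues. T5H, the tryptamine 5-hydroxylase, was 39.5, 28.8 and 32.3 in unpollinated stigma and 1.50, 0.704 and 0.912 in unpollinated ovary. That is a log2 difference of 5.08 (SE 0.39, 33.7-fold, limma adjusted p = 2.50e-08). At 5 min T5H was 37.3 and 19.5 in stigma and 1.51, 4.06 and 0.985 in ovary, so the tissues stayed apart (3.89, SE 0.44, limma adjusted p = 5.74e-06). The 5-min change of T5H was not called in stigma (-0.30, limma adjusted p = 0.726) or in ovary (0.89, limma adjusted p = 0.202).

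ASMT3 went the other way, with 0.193, 0.199 and 0.180 in unpollinated stigma and 4.59, 2.38 and 1.25 in unpollinated ovary (log2 difference -3.65, SE 0.35, limma adjusted p = 3.96e-07). ASMT itself was not tested between these tissues, and 2 of its 3 unpollinated ovary arrays lay at the floor. In all, 3 of the 9 genes were higher in unpollinated stigma and 2 were lower, beside 19.7% and 13.1% of all tested probe sets. At 5 min 1 was higher and 3 were lower, beside 20.7% and 14.3%. In the test of the interaction 0 of 9 genes passed, beside 1.37% of all tested probe sets.

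**Figure D3:**
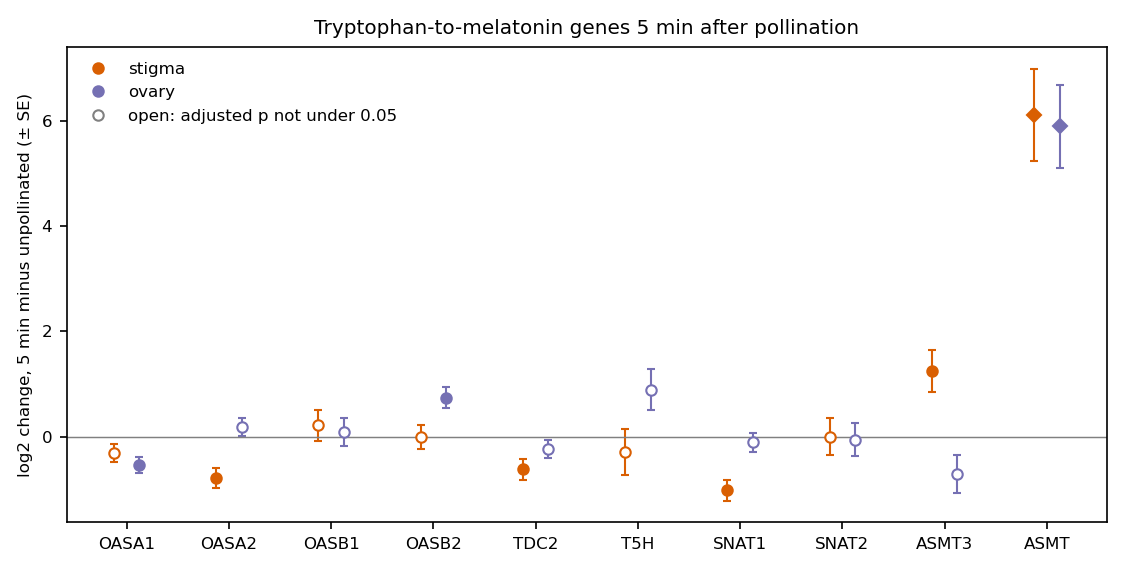
Log2 change at 5 min (5-min mean minus unpollinated mean, bars ± SE of the fit) for 9 pathway genes and ASMT, in stigma and ovary. Filled circles passed an adjusted p under 0.05 and open circles did not, and the diamonds of ASMT (6.11 and 5.90) are a description without a test. No other gene of the list had a log2 change beyond 1.25 in either tissue.

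Of 57 genes for metal uptake, transport and chelation in the naming table, 35 were tested. In the 5-min stigma 11 were higher and 2 lower, and in the 5-min ovary 3 were higher and 0 lower. Over all tested probe sets 8.61% were higher and 13.4% lower in stigma, and 3.88% and 2.02% in ovary. The median log2 changes were 0.34 and 0.14, against -0.02 and -0.06 over all tested probe sets. NAS3, a nicotianamine synthase that makes the main small-molecule metal chelator of plants, rose by 4.99 in stigma (SE 0.91, 31.8-fold, limma adjusted p = 9.53e-04). It was also higher in pistils than both unpollinated tissues at all 3 times, by 3.52 or more on the log2 scale. The stigma call of NAS3 was lost when only the 2 groups compared were fitted (limma adjusted p = 0.0623), as were its calls at 15 to 25 min and 40 to 50 min. The 40 to 50 min call was also lost without unpollinated ovary replicate 3.

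YSL7, of the yellow stripe-like family of metal-nicotianamine transporters, rose 33.5-fold in stigma (log2 5.07, SE 0.75, limma adjusted p = 1.79e-04). In ovary it rose 8.99-fold (log2 3.17, SE 0.67, limma adjusted p = 0.00938). Both YSL7 calls held in all 30 alternatives. Among the smaller rises in stigma were those of YSL1 (2.07), the transaminase NAAT1 (1.76), MTP7 of the metal tolerance proteins (1.73) and the copper transporter COPT1 (1.21), while NRAMP4 fell by 0.78. At 5 to 7 h 4 of the 35 genes were higher than both unpollinated tissues (NAS3, YSL7, YSL12 and YSL16) and 4 were lower (HMA2, NAAT1, NRAMP4 and ZIP3). Over all tested probe sets 8.61% were higher and 7.41% lower there, so these counts lie near the background.

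Pollen grains are part of the pollinated samples that include the stigma, so the fixed pollen markers were set beside ASMT and MT1B. Whether the dissected 5-min ovary held pollen was not tested. Of 13 pollen genes named, 3 matched a gene in the naming table and 2 have a probe set. These are the beta-expansins EXPB9 and EXPB10, of the family of the grass group 1 pollen allergens. Their summed intensity was 2.80 to 4.93 in unpollinated stigma, 0.264 to 0.671 in unpollinated ovary, 63.5 to 67.9 in the 5-min stigma and 8.40 to 19.8 in the 5-min ovary. In pistils it was 2.60 to 11.1, 1.58 to 19.8 and 10.2 to 13.4 at the 3 times in order.

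EXPB9 carried nearly all of that sum in the pollinated groups. The 40 to 50 min array with the lowest ASMT (replicate 2, 0.903) had the highest EXPB9 of its group (19.5), and the array with the highest ASMT (replicate 3, 14.3) had the lowest (1.46). At 5 to 7 h EXPB9 was 10.1 to 13.2, near or above its level in the 15 to 25 min pistils, while ASMT was at its unpollinated level. The other marker, EXPB10, differed in course. It was 0.261 to 0.549 in unpollinated stigma and 0.984 to 1.86 in the 5-min stigma. In ovary it was 0.0843 to 0.185 before pollination and 0.246 to 0.299 at 5 min, where EXPB9 was 8.12 to 19.5. In pistils EXPB10 was only 0.185 to 0.265, 0.121 to 0.401 and 0.132 to 0.236 at the 3 times in order. Among the 40 to 50 min arrays EXPB10 was highest on replicate 1 (0.401) and lowest on replicate 3 (0.121). Over the 14 pollinated arrays Pearson's r with EXPB9 was -0.14 for ASMT and 0.05 for MT1B on the log2 scale, and over all 20 arrays it was 0.43 and 0.66. These arrays share groups, and the part of pollen RNA in either gene's level was not tested beyond these values.

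**Figure D4:**
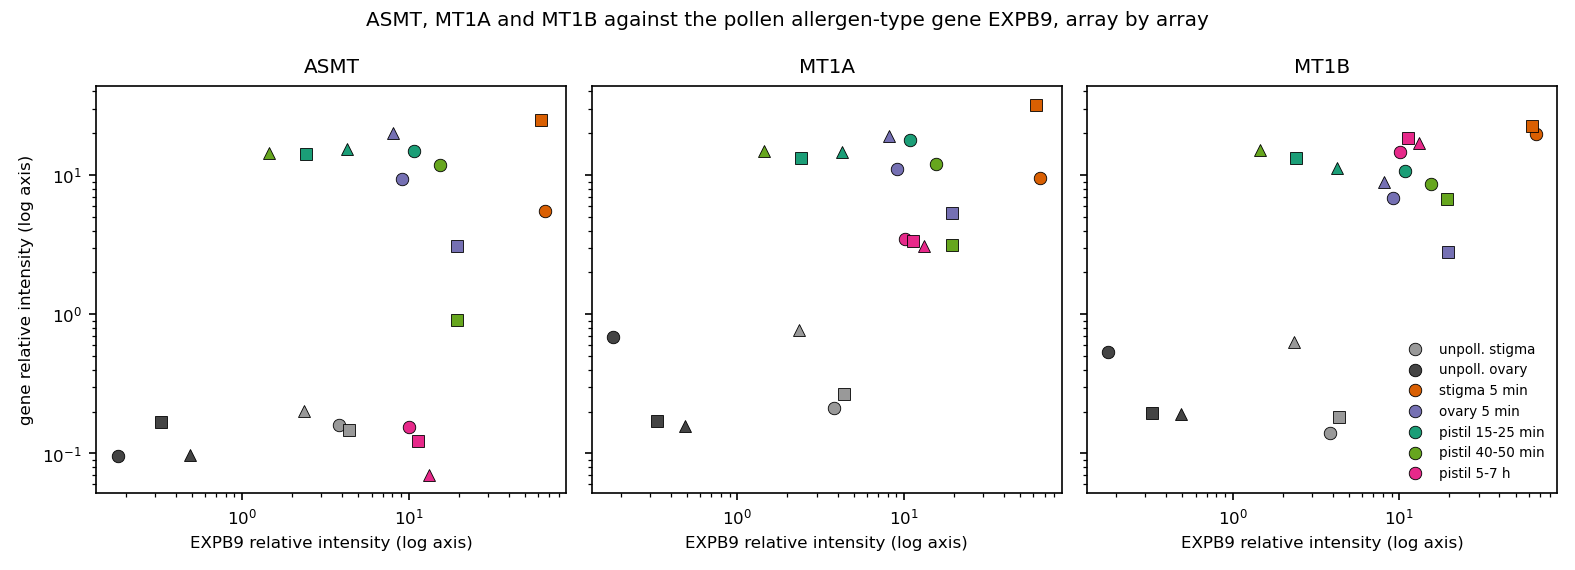
Relative intensity of ASMT, MT1A and MT1B against that of the pollen-expressed expansin gene EXPB9, both on log axes, 1 point per array (circles, squares and triangles are replicates 1 to 3, colours the groups). The 5 to 7 h arrays have EXPB9 of 10.1 to 13.2 with low ASMT and high MT1B, and the 40 to 50 min replicate 2 has the lowest ASMT of its group at the highest EXPB9.

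Within the 5-min ovary and within the 40 to 50 min pistils, replicate 2 was the lowest array and replicate 3 the highest for ASMT, MT1A and MT1B alike. In the 5-min stigma, replicate 2 was higher than replicate 1 for ASMT (24.9 and 5.48) and for MT1A (32.2 and 9.50), and closer to it for MT1B (22.6 and 19.9). Over the 14 pollinated arrays Pearson's r on the log2 scale was 0.93 between ASMT and MT1A, -0.13 between ASMT and MT1B and 0.15 between MT1B and MT1A. These values mix differences within groups with differences between them, such as the parting of the genes at 5 to 7 h. The 5-min stigma replicate 2 also held more than replicate 1 of the ovule markers MADS13 (3.66 and 0.972) and MADS21 (0.964 and 0.256). Of the markers of nucellus and early endosperm, MADS29 was 1.27 and 0.134 on these arrays and NF-YB1 0.380 and 0.294. The part of ovary tissue in the ASMT value of replicate 2 was not tested. In unpollinated stigma, replicate 3 was the highest array for MT1B, MT1A, MT4A and MT2A.

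The genes whose pattern was most like that of ASMT were sought among 2815 tested probe sets of genes with a symbol, by Pearson's r of log2 intensity over the 20 arrays. HOX12, a homeodomain-leucine zipper transcription factor, was first with 0.983. It was 0.0637 to 0.185 in unpollinated stigma, 0.180 to 0.716 in unpollinated ovary, 5.59 to 21.4 and 4.70 to 23.9 in the 5-min tissues, 14.7 to 21.1 and 1.63 to 17.4 in the first pistils, and 0.143 to 0.283 at 5 to 7 h. Next came BURP17, a BURP-domain gene, with 0.976, the beta-glucosidase gene BGLU16 with 0.967, the nucleoredoxin gene OsNrx2 with 0.960 and HOX7, another homeodomain-leucine zipper gene, with 0.959. Each of the 5 had, like ASMT, a lowest 40 to 50 min array below all its 15 to 25 min arrays. At 5 to 7 h the highest arrays were 0.129 for BURP17, 0.143 for BGLU16, 0.354 for OsNrx2 and 0.635 for HOX7.

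For MT1B the most similar were 2 probe sets of the chitinase gene CH6 (0.974 and 0.970), cbp3 (0.974), the chitinase gene CH16 (0.962) and the beta-glucosidase gene BGLU6 (0.949). Both CH6 probe sets are of a kind that can cross-hybridise with related sequences, as are those of BGLU16, MT2B and SNAT1. Those used for OsNrx2 and MT2A and the called one of OASA2 are of another kind, which can match several transcripts. Like MT1B, the genes CH6, cbp3, CH16 and BGLU6 remained above every unpollinated array at 5 to 7 h. CH16 was 0.0829 to 0.536 in the unpollinated tissues, 23.2 to 28.1 in the 5-min stigma and 6.71 to 9.27 at 5 to 7 h. cbp3 was 1.02 to 3.34 in the unpollinated tissues, 39.5 to 50.8 in the 5-min stigma and 48.3 to 57.9 at 5 to 7 h, and it was lowest among the pollinated groups in the 5-min ovary, at 7.20 to 17.1. These correlations describe the same 20 arrays that the genes were chosen on.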

How the data were processed

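The analysis used the intensity values deposited by the authors, on a linear relative scale (57381 probe sets, 20 arrays, lowest value 0.01). The submitters' processing notes name GCOS 1.3, and the scaling steps after it are not given in the sources used here. The labels state 500 ng of total RNA as the starting amount for labelling.

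A floor of 0.128, which is the 20th percentile of all values, was set before taking log2, and nothing else was normalized. Testing covered 35470 probe sets that exceeded their array's median on 2 or more arrays, without the 187 control probe sets. A limma model (version 3.58.1, run in R 4.3.3) estimated the 7 group means, with moderated variances, a trend on the mean and 13 residual degrees of freedom. P-values were adjusted by Benjamini-Hochberg separately per comparison, with calls at an adjusted p under 0.05. The code was tested on simulated data. Pistil calls needed the same direction against both unpollinated tissues. Folds are ratios of geometric means after the floor, and those with 2 or more arrays of the lower group at the floor are lower bounds.

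Of all probe sets, 22436 have 1 annotated gene, 95 have more and 34850 have none here. A list gene is represented by its tested probe set of highest mean. Lists were matched on symbols and synonyms, and the 5 most similar genes were named by rank of correlation. The 2 genes, the lists and the rules were chosen with earlier results of these data known. For that reason p-values computed for ASMT and MT1B from 5-min arrays are not reported. The number of arrays limits the precision. Alternatives were another scaling, floor, filter, variance model, array weights, a replicate block, fits of only the compared groups, and leaving out each array.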

Additional observations from a re-analysis of the deposited data

How the results depend on the processing

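Array median centring, which moves the median of all probe sets from 0.24 to -0.16 in the 5-min stigma against ovary, gave 1.52 for MT1B there and -0.049 for ASMT between unpollinated tissues. It left 2 pathway genes called in the 5-min stigma and 0 in the 5-min ovary. Without a floor the ASMT interaction was -0.053. The MT1B difference between unpollinated tissues was 0.077 with a floor at the 40th percentile and 0.16 with array weights. Array weights left 1 pathway gene and 1 metallothionein called in stigma. Without the filter 0 pathway genes were called in ovary, and 1 metallothionein in each tissue, as with a filter at the 75th percentile. Without the variance trend 1 pathway gene was called in ovary. With only the compared groups fitted, 1 pathway gene and 1 metallothionein were called in stigma and 0 pathway genes in ovary.

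Leaving out 1 array at a time gave 0.14 to 0.40 for ASMT and -0.77 to 0.38 for MT1B between unpollinated tissues, and -0.61 to 1.58 and 1.44 to 2.27 at 5 min. The interaction was -0.88 to 1.31 for ASMT and 1.54 to 2.69 for MT1B. Without 5-min stigma replicate 2 or 5-min ovary replicate 2, ASMT at 5 min was -0.61 or -0.24 and its interaction -0.88 or -0.50, so neither has a settled direction. MT1B between unpollinated tissues was 0.31, 0.13 and 0.38 without unpollinated stigma replicate 1, stigma replicate 2 and ovary replicate 1. Called pathway genes numbered 0 to 4 in stigma and 0 to 2 in ovary, metallothioneins 1 to 4 and 1 to 2, and pistil calls of both lists 3 to 6. The ASMT difference at 40 to 50 min was 4.28 to 6.27.

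Replicate numbers did not pair the samples throughout. Of 57 same-numbered pairs 22 had deviations correlated above 0.1, and the range was -0.26 to 0.43. In some group pairs every same-numbered pair was above 0.1. These were unpollinated ovary with 40 to 50 min pistil (0.133 to 0.173) and the 5-min stigma with 3 groups. The latter were unpollinated ovary (0.419 and 0.401), 15 to 25 min pistil (0.395 and 0.254) and 5 to 7 h pistil (0.199 and 0.343). With the replicate block MT1B at 5 min was 2.10, and no call in the list counts changed. Probe sets called over the whole table moved with the settings as well: from 7810 in the 5-min stigma to 5033 with median centring, 3252 with array weights, 1270 with only the compared groups and 2968 without 5-min stigma replicate 2, from 2091 in the 5-min ovary to 1120 with median centring, 1334 without the filter, 4215 with array weights and 867 with only the compared groups, and from 487 in the interaction to 174 with median centring.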
